A study of Mus musculus with 2 samples.

Results

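The genes described here are 3 regulators and markers of tendon cells (Tnmd, Scx and Mkx) and the 5 thrombospondins (Thbs1, Thbs2, Thbs3, Thbs4 and Comp). They are followed across the cells of fetal mouse femur. They were chosen by name, and with earlier results of these data known, so their levels are given as a description. The 8 genes were all found among the 22652 genes of the 2 count tables.

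The study profiled single cells of fetal femur at the embryonic stage E18.5 to compare the marrow microenvironment and the haematopoietic cells within it. Lineage-committed blood cells were removed magnetically. Per the paper, fetal femurs were dissected, crushed and digested with collagenase, so the cells are not of marrow alone. There was 1 library of each genotype, both from C57BL/6 mice. The library labelled WT is wild type, and its litter and any tamoxifen are not named in the sources used here. The library labelled Bmx-CreER Wls comes from embryos in which a tamoxifen-inducible Cre driven by Bmx, a gene of arterial endothelial cells, deletes Wls, a gene needed for the secretion of Wnt ligands. The deletion was therefore aimed at arterial endothelium, not at tendon, stromal, cartilage or blood cells. The number of embryos pooled in each library is not stated. Genotype and library cannot be told apart with 1 library each, cells are not replicates, and no test between the libraries was made.

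Tendons join muscle to bone and are built by fibroblasts that lay down parallel collagen fibres. Scx encodes scleraxis, the transcription factor that marks tendon progenitors, Mkx encodes mohawk, a homeobox factor needed for tendon collagen, and Tnmd encodes tenomodulin, a membrane glycoprotein of maturing tendon cells. The thrombospondins are secreted, calcium-binding matrix glycoproteins: Thbs1 and Thbs2 form trimers that bind CD47 and integrins and restrain blood vessel growth, whereas Thbs3, Thbs4 and Comp form pentamers. Thbs4 is best known from tendon and muscle, and Comp, the cartilage oligomeric matrix protein, from growth plate cartilage.

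In mm10 (GRCm38), Tnmd lies at chrX:133850980-133865577 on the plus strand, Scx at chr15:76457452-76459458 on the plus strand, Thbs1 at chr2:118111876-118127133 on the plus strand and Thbs2 at chr17:14665500-14694235 on the minus strand. Thbs3 is at chr3:89215180-89226837 on the plus strand, Thbs4 at chr13:92751590-92794818 on the minus strand and Comp at chr8:70373558-70382066 on the plus strand, and Mkx is on chromosome 18. Scx overlaps Bop1 and Thbs3 overlaps Mtx1, each on the opposite strand. Since the strand setting of the counting is not stated, reads of these pairs could be mixed, and Scx and Thbs3 are uncertain to that extent. Bop1 reached 151 CPM (counts per 1000000 UMIs of a class) in WT blood-like cells, where Scx had 2 UMIs in all, and Mtx1 reached 10.5 CPM in WT tendon-like cells, where Thbs3 had 322 CPM.

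Of the 8 genes, 4 have a promoter window in the RefSeq-derived table for GRCm38.p6. The 250 bases before the RefSeq start of Tnmd and of Thbs4 are printed because cells with Tnmd were those in which Thbs4 was most often found, as described further on. Capitals mark CANNTG (the E-box, the motif family bound by basic helix-loop-helix factors, to which scleraxis belongs), searched on both strands, where it reads the same. The RefSeq start of Tnmd lies downstream of the start given above, so the end of its window falls inside the gene as given there.

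Tnmd, chrX:133850758-133851007, plus strand: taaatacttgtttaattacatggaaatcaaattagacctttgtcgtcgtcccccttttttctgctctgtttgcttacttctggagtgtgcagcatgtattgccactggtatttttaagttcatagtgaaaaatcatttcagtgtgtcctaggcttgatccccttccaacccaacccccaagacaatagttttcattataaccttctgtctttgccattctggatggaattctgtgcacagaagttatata

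Thbs4, chr13:92794819-92795068, minus strand: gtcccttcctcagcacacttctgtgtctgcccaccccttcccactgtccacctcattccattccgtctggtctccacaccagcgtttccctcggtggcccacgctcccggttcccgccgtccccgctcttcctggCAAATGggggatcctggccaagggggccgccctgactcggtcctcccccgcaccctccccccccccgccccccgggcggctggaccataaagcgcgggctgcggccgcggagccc

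The Thbs4 window holds 1 such motif and the Tnmd window holds 0. Over 32851 windows of this length, 66.2% hold at least 1. A match of letters is a description and shows no binding.

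The WT library holds 22708005 UMIs in 5998 barcodes and the Bmx-CreER Wls library holds 24704991 UMIs in 6825 barcodes. The study's filter left 5736 and 6620 cells with medians of 3128 and 3067 UMIs, and 48 barcode sequences occur in both libraries. Xist, the RNA of the inactive X chromosome, was found in 13.4% of WT cells and 51.6% of Bmx-CreER Wls cells. Wls itself stood at 42.5 CPM (84 UMIs) in WT endothelial-like cells and 22.5 CPM (41 UMIs) in those of the Bmx-CreER Wls library. In their Gja5-led arterial cluster it had 12 UMIs against 2. Tags near the 3′ end need not lie in the deleted part, so these counts do not check the deletion.

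Both libraries were clustered together without the 8 genes, and clusters were named from marker lists in which none of the 8 stands. The names end in "-like", since they were rebuilt here and are not the authors'. There were 114 WT and 182 Bmx-CreER Wls tendon-like cells, 1058 and 732 stromal-like cells, 127 and 71 mitotic stromal-like cells, 2372 and 3582 cartilage-like cells, and 716 and 470 blood-like cells. Dividing cells with tendon markers, 11 WT and 20 Bmx-CreER Wls, were kept apart as mitotic tendon-like. The size of the tendon-like class depended on the clustering: it was empty in both libraries at resolution 0.5 and with 11 principal components, and reached 176 WT and 224 Bmx-CreER Wls cells when the clustering was run to convergence.

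The tendon-like class was named from 8 markers, so their levels describe the class and are no separate check of its name. Of these, 7 had UMIs in the class, and Angptl7 had none in either library. Kera, which encodes the small leucine-rich proteoglycan keratocan, stood at 353 and 357 CPM in WT and Bmx-CreER Wls tendon-like cells, against 14.8 and 3.30 CPM in stromal-like and under 1 CPM in cartilage-like cells. Fmod, the most abundant marker of the list, was no such divider: it stood at 2856 and 3168 CPM in tendon-like cells and at 2207 and 3582 CPM in cartilage-like cells. Fibin was higher in cartilage-like cells (513 and 527 against 259 and 312 CPM), whereas Cilp2, Chodl, Cpxm2 and Wif1 were higher in tendon-like cells. The 8 markers summed to 4199 and 4574 CPM in tendon-like and 2980 and 4467 CPM in cartilage-like cells. In the unnamed clusters they summed to 7484 and 10707 CPM. Genes of the cartilage list summed to 8723 and 7625 CPM in the tendon-like class, above 2495 and 5297 CPM in the stromal-like class, and their part in the results below was not tested.

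Intervals in brackets are exact 95% intervals (Poisson for a level, Clopper-Pearson for a share, conditional binomial for a ratio). They cover counting error only, and say nothing of the spread between embryos. A ratio was called past a fold only where the compared classes together held at least 50 UMIs of the gene.

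**Figure D1:**
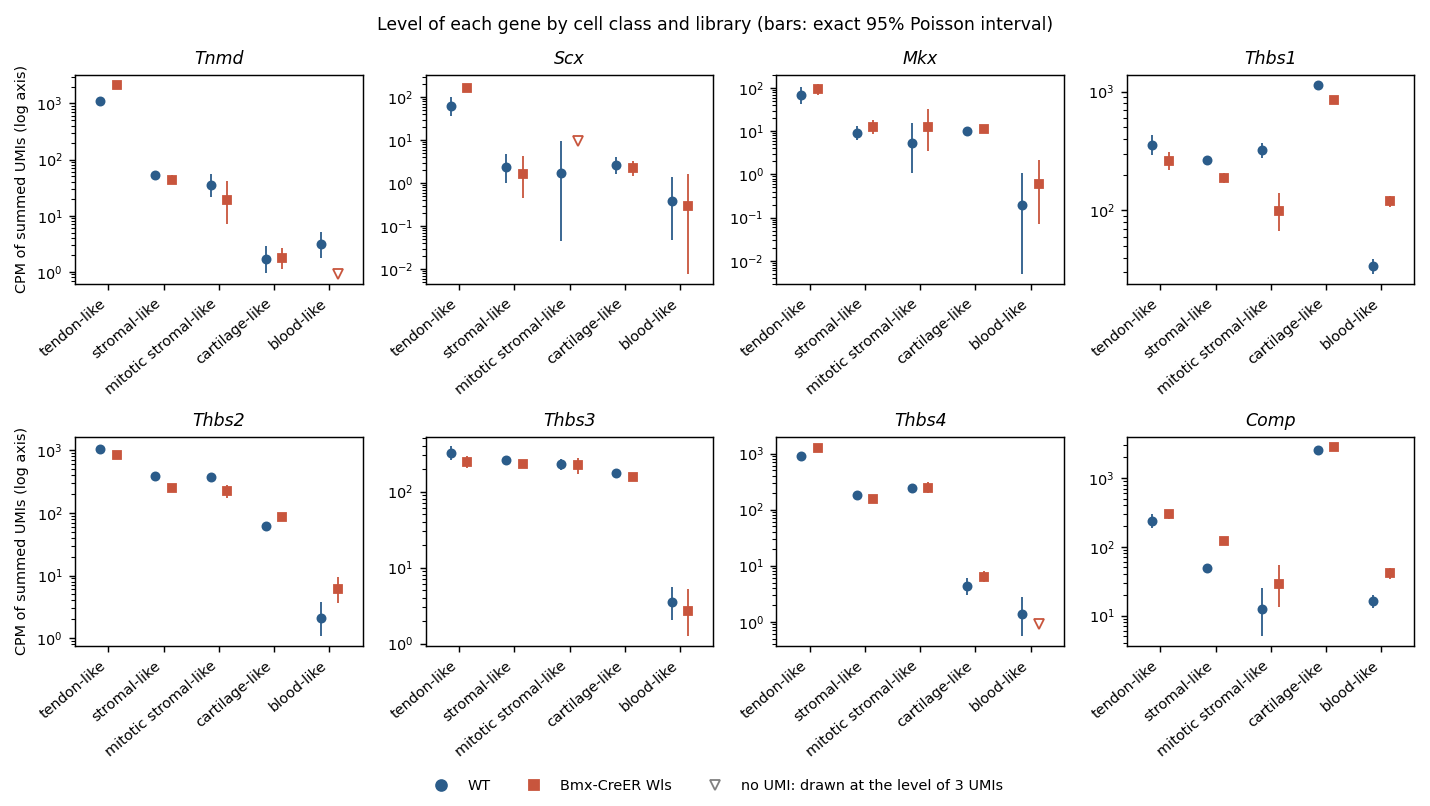
Level of each gene (CPM of summed UMIs, log axis) in the 5 cell classes, WT as circles and Bmx-CreER Wls as squares, with exact 95% Poisson intervals and an open triangle at the level of 3 UMIs where there was none. Tnmd, Scx, Mkx, Thbs2 and Thbs4 were highest in tendon-like cells in both libraries, while Thbs1 and Comp were highest in cartilage-like cells.

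Tnmd stood at 1094 CPM (976 to 1222, 313 UMIs) in WT tendon-like cells and at 2093 CPM (1972 to 2219, 1115 UMIs) in Bmx-CreER Wls tendon-like cells. Mural-like cells, those around vessels, had 122 and 240 CPM, and they and the dividing tendon-like cells are described further on. Of the other classes the stromal-like came next, with 54.2 and 44.1 CPM. The mitotic stromal-like class followed, with 35.5 (21.7 to 54.8) and 19.2 (7.06 to 41.9) CPM. Its intervals overlapped those of the stromal-like class. Cartilage-like cells had 1.71 and 1.78 CPM. Tnmd thus lay more than an order of magnitude lower in the stromal-like than in the tendon-like class, and about as much lower again in cartilage.

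In blood-like cells Tnmd had 16 UMIs in WT, 13 of them in 1 cell, and 0 in Bmx-CreER Wls, which allows up to 0.906 CPM. Endothelial-like cells, which should lack the gene, had 0 UMIs in both libraries (limits of 1.52 and 1.65 CPM), at median depths of 2961 and 3290.5 UMIs per cell against 2251.5 and 2713.5 in tendon-like cells. A Tnmd UMI was found in 33.3% (24.8 to 42.8) of WT and 39.0% (31.9 to 46.5) of Bmx-CreER Wls tendon-like cells. With every cell thinned to 1000 UMIs, which left out 3 and 2 shallower cells, the shares were 27.0% and 33.9%. In stromal-like cells 8.13% and 5.19% had a Tnmd UMI, or 3.54% and 2.33% after thinning.

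Few cells carried much of the Tnmd RNA. The 10 cells with the most UMIs held 62.0% of the Tnmd UMIs of WT tendon-like cells and 38.8% of those of Bmx-CreER Wls. The highest single cells held 38 and 50 UMIs, and the median tendon-like cell with any Tnmd held 5 and 12. Of all Tnmd UMIs of a library, the tendon-like class held 41.6% in WT and 70.6% in Bmx-CreER Wls, the mitotic tendon-like class 20.1% and 14.0%, and the stromal-like class 24.3% and 6.77%.

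Scx, which encodes the transcription factor that marks the tendon lineage, stood at 62.9 CPM (37.3 to 99.5, 18 UMIs) in WT and 165 CPM (132 to 203, 88 UMIs) in Bmx-CreER Wls tendon-like cells. Blood-like cells had 2 and 1 UMIs in all. Mitotic stromal-like cells had 1 UMI in WT, with an interval up to 9.88 CPM, and none in Bmx-CreER Wls (limit 9.62 CPM). Stromal-like cells had 2.37 and 1.65 CPM and cartilage-like cells 2.69 and 2.26 CPM, with overlapping intervals.

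Mkx stood at 69.9 CPM (42.7 to 108, 20 UMIs) in WT and 93.8 CPM (69.6 to 124, 50 UMIs) in Bmx-CreER Wls tendon-like cells. Stromal-like cells (9.18 and 12.8 CPM) and cartilage-like cells (10.03 and 11.4 CPM) did not differ beyond their intervals. Unlike Tnmd, Mkx was thus found at a like low level in stroma and cartilage, and in endothelial-like cells it had no UMI in either library (limits of 1.52 and 1.65 CPM).

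**Figure D2:**
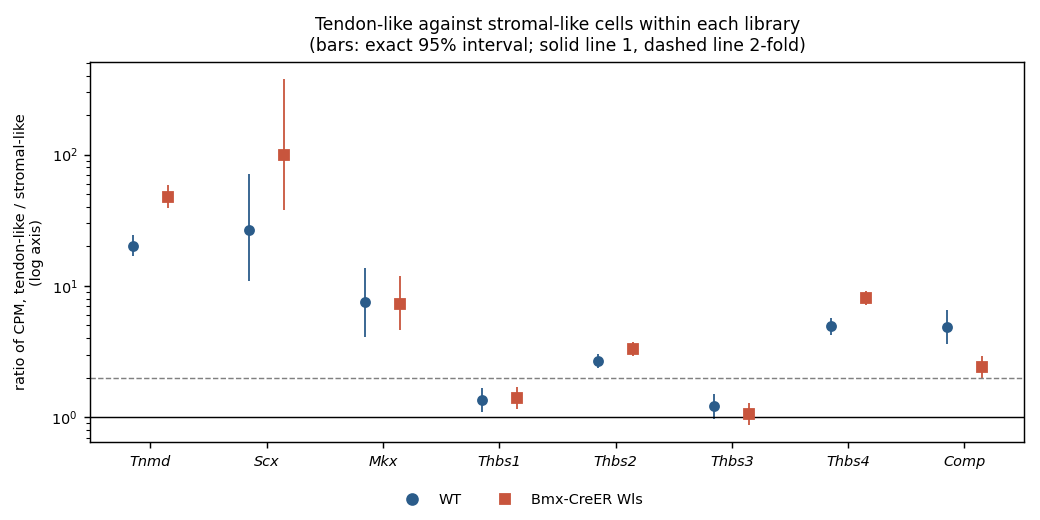
Ratio of CPM in tendon-like over stromal-like cells for each gene (log axis), WT as circles and Bmx-CreER Wls as squares, with exact 95% intervals, a solid line at 1 and a dashed line at 2-fold. Thbs1 and Thbs3 lie near 1 in both libraries, and the other 6 genes lie above the 2-fold line, Scx in WT on 18 and 8 UMIs.

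Against stromal-like cells of the same library, 5 of the 7 genes with enough UMIs were at least 2-fold higher in WT tendon-like cells and 0 were lower. Over the 7707 genes with as many UMIs, 3.1% were as much higher and 14.4% as much lower, with a median ratio of 0.889 against 4.89 for the 7. In the Bmx-CreER Wls library 6 of 8 were higher and 0 lower, with a background of 3.1% higher and 10.8% lower and medians of 0.916 over all genes and 5.33 over the 8. The ratio of Tnmd was 20.2 (16.8 to 24.4) in WT and 47.5 (38.9 to 58.4) in Bmx-CreER Wls. Scx had 18 against 8 UMIs in WT, too few for a call, and a ratio of 100.2 (37.8 to 376) in Bmx-CreER Wls, and Mkx 7.61 (4.11 to 13.8) and 7.35 (4.601 to 11.9). Tnmd and Mkx were thus past 2-fold higher in the tendon-like class in each library, and Scx in Bmx-CreER Wls, with no call in WT. The clustering and naming were set with the levels of the 8 genes in view, so these counts are a description and no independent support.

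Thbs4 encodes the thrombospondin best known from tendon. It stood at 909 CPM (802 to 1026) in WT and 1252 CPM (1159 to 1351) in Bmx-CreER Wls tendon-like cells, 4.92 (4.24 to 5.69) and 8.10 (7.13 to 9.22) times the stromal-like level. With tendon-like cells taken by a gate on tendon markers instead, the ratios were 1.12 and 1.63, and with an earlier naming rule 1.58 and 1.89, no longer past 2-fold. The gate took 296 WT and 717 Bmx-CreER Wls cells, most of them from an unnamed Prg4-led cluster described further on. Without that cluster 112 and 143 cells remained, and the ratio of Thbs4 in WT was 1.86. Mitotic stromal-like cells had 245 and 247 CPM and stromal-like cells 185 and 155 CPM, so Thbs4 was also a stromal gene. In cartilage-like cells it stood at 4.28 and 6.38 CPM, and blood-like cells held 7 UMIs in WT and 0 in Bmx-CreER Wls. A Thbs4 UMI was found in 43.0% and 58.8% of tendon-like cells, 31.5% and 44.4% after thinning, and in 0.341% and 0.431% of endothelial-like cells.

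Thbs2, the matrix protein whose loss disturbs collagen fibrils, stood at 1035 CPM (920 to 1160) and 841 CPM (765 to 922) in tendon-like cells, 2.69 (2.37 to 3.06) and 3.31 (2.92 to 3.74) times the stromal-like levels of 384 and 254 CPM. Mitotic stromal-like cells had 370 and 224 CPM, which did not differ from stromal-like cells beyond the intervals. The order went on with cartilage-like cells, at 62.8 and 87.3 CPM, and blood-like cells, at 2.13 and 6.04 CPM. A Thbs2 UMI was found in 76.3% and 80.8% of tendon-like cells, against 1.71% and 2.37% of endothelial-like cells.

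Thbs3 did not mark any single one of the tendon-like, stromal-like, mitotic stromal-like and cartilage-like classes. It stood at 322 (259 to 394) and 246 (206 to 292) CPM in tendon-like, 263 and 231 CPM in stromal-like, 227 and 221 CPM in mitotic stromal-like and 174 and 156 CPM in cartilage-like cells. Ratios of tendon-like over stromal-like cells were 1.22 (0.974 to 1.51) in WT and 1.06 (0.872 to 1.29) in Bmx-CreER Wls, intervals that hold 1. The unnamed clusters had 166 and 118 CPM and mural-like cells, those around vessels, 33.9 and 48.04 CPM. Thbs3 was lower at 8.60 and 11.5 CPM in endothelial-like cells, 11.2 and 7.41 CPM in osteolineage-like cells, the cells of the bone-forming lineage, and 3.49 and 2.72 CPM in blood-like cells.

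Thbs1, the activator of latent TGF-β, had most of its UMIs in cartilage-like cells in these libraries. It stood at 1133 CPM (1110 to 1157) in WT and 848 CPM (832 to 865) in Bmx-CreER Wls cartilage-like cells, which held 78.4% and 76.3% of the Thbs1 UMIs of each library. The unnamed clusters held a further 6.03% and 13.6%. Tendon-like cells had 357 (291 to 433) and 261 (219 to 308) CPM, 0.315 and 0.308 times the cartilage-like level. Stromal-like cells had 264 and 187 CPM, so that the tendon-like over stromal-like ratio was 1.35 (1.09 to 1.66) and 1.397 (1.15 to 1.69), within 2-fold. It depended on how the cells were taken, with ratios past 2-fold under the gate (3.12 and 4.33) and the earlier naming rule (3.43 and 4.01), and down to 0.582 in WT with a stricter cell filter and 0.270 in Bmx-CreER Wls clustered on its own. Most cells of the gate were of the Prg4-led cluster, and without them Thbs1 was not among the genes past 2-fold in both libraries.

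Comp was the most cartilage-bound of the 8, with 93.6% of its WT UMIs and 88.6% of its Bmx-CreER Wls UMIs in cartilage-like cells, at 2575 CPM (2540 to 2610) and 2854 CPM (2824 to 2884). A further 3.86% and 9.34% lay in the unnamed clusters. Among these is a Prg4-led cluster, described further on, whose markers scored highest for cartilage. Tendon-like cells had 238 (185 to 301) and 295 (250 to 345) CPM, stromal-like cells 48.6 and 123 CPM, blood-like cells 16.1 and 41.1 CPM, and mitotic stromal-like cells 12.4 and 28.9 CPM. Comp lay 4.89-fold (3.63 to 6.53) and 2.40-fold (1.96 to 2.92) above the stromal-like level in tendon-like cells. Much of this lay in 1 group of tendon-like cells, led by Tnn, Cpxm2 and Ecm2 and with the highest cartilage marker score of the 6 groups described further on, which held 42 of the 68 WT and 91 of the 157 Bmx-CreER Wls Comp UMIs of the class. Without that group Comp stood at 111 and 145 CPM, with ratios of 2.29 (1.45 to 3.48) in WT and 1.18 (0.888 to 1.54) in Bmx-CreER Wls, so that the call was lost in the second library. The ratio of the whole class did not hold its direction in every setting either: it was 0.806 in WT with another clustering seed and 0.989 in Bmx-CreER Wls with the 8 genes kept among those clustered.

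Against cartilage-like cells, tendon-like cells had 4 of 7 genes at least 2-fold higher and 2 lower in WT, with a background of 9.27% higher and 17.6% lower. In Bmx-CreER Wls 5 of 8 were higher and 2 lower, with a background of 9.12% and 13.6%. The 2 lower genes were Thbs1 and Comp in each library, and Comp had 0.0923 and 0.103 times its cartilage-like level. Thbs4 was 212-fold (149 to 311) and 196-fold (155 to 251) higher in tendon-like cells, and Tnmd 639-fold (375 to 1182) and 1177-fold (773 to 1886). Stromal-like over cartilage-like cells gave 3 of 7 genes higher (Tnmd, Thbs2 and Thbs4) and 2 lower (Thbs1 and Comp) in each library, with a background of 13.9% higher and 9.83% lower in WT and 13.4% and 9.89% in Bmx-CreER Wls. Among these 3 classes the thrombospondins thus divided: Thbs1 and Comp to cartilage, Thbs2 and Thbs4 to tendon and stroma, and Thbs3 to all 3. Thbs1 was also high in the Lyz2-led cluster of blood-like cells described further on, in Bmx-CreER Wls above its cartilage-like level.

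Cartilage RNA was also present in cells of other kinds. Col2a1, the main collagen gene of cartilage, stood at 765 and 1141 CPM in blood-like, 786 and 1738 CPM in endothelial-like and 1231 and 2534 CPM in stromal-like cells, in WT and Bmx-CreER Wls in that order. For every 100 UMIs of Col2a1 there were 3.85 and 4.66 UMIs of Comp in cartilage-like cells, 3.95 and 4.85 in stromal-like, 3.67 and 4.26 in endothelial-like and 2.10 and 3.60 in blood-like cells. In stromal-like and endothelial-like cells Comp thus had nearly the proportion to Col2a1 that it has in cartilage, and in WT blood-like cells a lower one. The share of cells with a Comp UMI was 5.48% and 7.92% in stromal-like cells against 3.75% and 6.47% in endothelial-like cells. The part of cartilage RNA from outside the cell in these Comp levels was not tested. Tendon-like cells had 5.09 and 6.79 Comp UMIs per 100 of Col2a1.

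**Figure D3:**
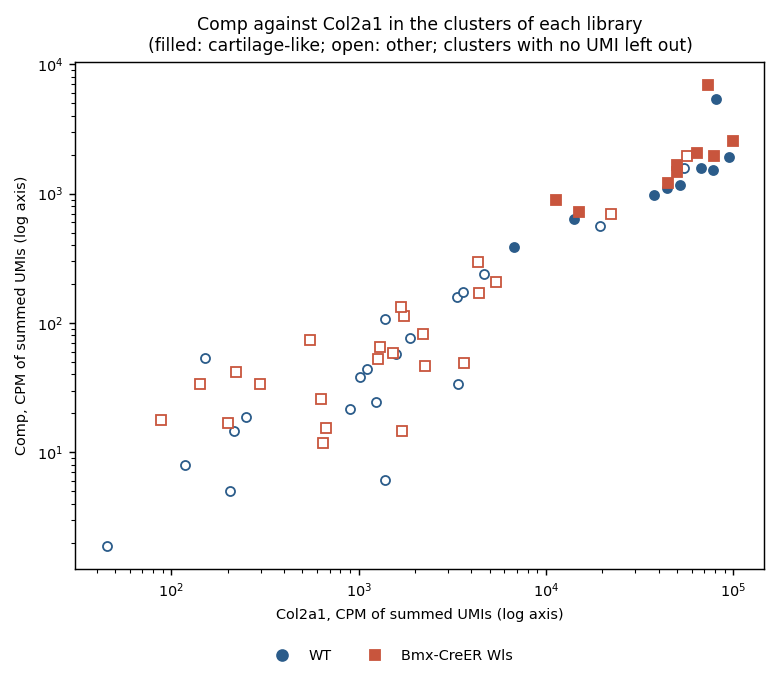
Comp against Col2a1 (CPM of summed UMIs, both axes log) in the 36 clusters of each library, WT as circles and Bmx-CreER Wls as squares, filled for cartilage-like clusters, with 29 WT and 32 Bmx-CreER Wls clusters holding UMIs of both genes. Open symbols of blood, endothelial and stromal clusters continue the line of the cartilage-like clusters towards low levels, and the highest point of each library is the Col10a1-led cluster.

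Thbs1 did not follow Col2a1 in the same way. Cartilage-like cells had 1.69 and 1.39 Thbs1 UMIs per 100 of Col2a1, tendon-like cells 7.64 and 6.01, stromal-like cells 21.4 and 7.37, and blood-like cells 4.41 and 10.4. Within cartilage, Comp was highest in the cluster led by Col10a1, the collagen of hypertrophic chondrocytes, at 5371 CPM in WT and 6928 CPM in Bmx-CreER Wls. It was lowest of the 9 cartilage-like clusters in the Bpifb1-led cluster in WT, at 384 CPM, and in the Stc1-led cluster in Bmx-CreER Wls, at 725 CPM. Thbs1 was also highest in the Col10a1-led cluster, at 1456 and 1262 CPM.

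The tendon-like cells were split further, again without the 8 genes, into 6 groups that differ in the members they express. The group led by Tnn, Cpxm2 and Ecm2 (24 WT and 34 Bmx-CreER Wls cells) held no Thbs4 UMI in either library, which allows up to 57.0 and 39.2 CPM. Its Tnmd came to 94.9 CPM in WT, from 1 cell, and 0 in Bmx-CreER Wls. The same group was the highest in Comp, at 798 CPM (575 to 1078) and 1189 CPM (957 to 1460). Its markers scored for cartilage as well as tendon, its Col2a1 stood at 19748 and 24069 CPM, and its Comp came to 4.04 and 4.94 UMIs per 100 of Col2a1, near the proportion in cartilage-like cells.

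Thbs4 and Tnmd were high in the groups led by Mfap4, Kera and Htra1 and by Kera, Chodl and Mfap4. The latter (8 and 16 cells) had Tnmd at 1945 and 2780 CPM and Thbs4 at 1648 and 1731 CPM, with 1 and 5 UMIs of Comp. In the Mfap4, Kera and Htra1 group (25 and 41 cells) Thbs4 stood at 2050 CPM (1750 to 2388) in WT and 1979 CPM (1751 to 2228) in Bmx-CreER Wls. Scx stood there at 137 and 174 CPM and Mkx at 137 and 109 CPM. Tnmd was 2746 CPM (2396 to 3133) in WT and 747 CPM (609 to 905) in Bmx-CreER Wls, a ratio of 0.272 (0.213 to 0.345). In this group the Bmx-CreER Wls library thus had the lower Tnmd, against the direction of the class as a whole, with Thbs4 at nearly equal levels.

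Comp showed a further difference there, with 2 UMIs in 25 WT cells and 42 UMIs (304 CPM, 219 to 412) in 41 Bmx-CreER Wls cells. Those 42 came to 55.3 per 100 UMIs of Col2a1, more than 10 times the proportion in cartilage-like cells of that library, which makes this the tendon-like group of that library in which Comp departed most from Col2a1. In the group of 41 WT and 30 Bmx-CreER Wls cells led by Kera, Egfl6 and Igfbp2, Tnmd stood at 226 and 316 CPM and Thbs4 at 338 and 775 CPM.

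A group led by Kera, Chodl and Zfp185 was almost confined to 1 library, with 1 WT and 41 Bmx-CreER Wls cells. Its 41 cells had the highest Tnmd of the 6 groups in that library, at 5493 CPM, and Thbs4 at 1482 CPM. They were 22.5% of the Bmx-CreER Wls tendon-like cells. Their median depth was 3207 UMIs, and 43.9% of them had an Xist UMI, against 51.6% of all cells in the library.

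**Figure D4:**
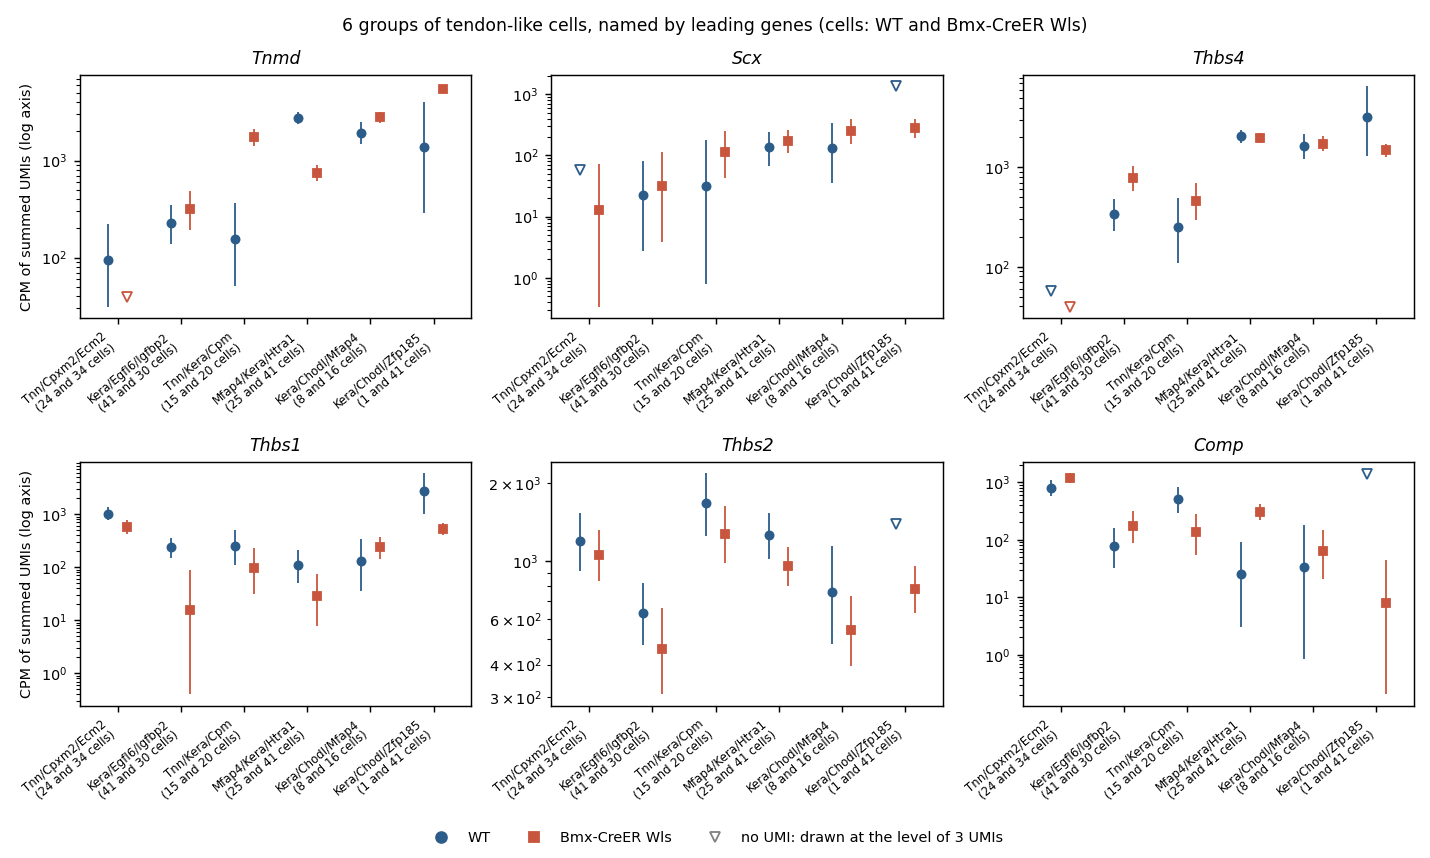
Levels of 6 of the genes (CPM of summed UMIs, log axis) in the 6 groups of tendon-like cells, named by leading genes, WT as circles and Bmx-CreER Wls as squares, with exact 95% Poisson intervals and open triangles at the level of 3 UMIs where there was none. Thbs4 and Tnmd are low or absent in the Tnn/Cpxm2/Ecm2 group, where Comp is highest, and Tnmd differs in opposite directions between the libraries in the Tnn/Kera/Cpm and Mfap4/Kera/Htra1 groups.

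Within the tendon-like class, Tnmd and Thbs4 were found in the same cells. A Thbs4 UMI was present in 89.5% (75.2 to 97.1) of the 38 WT cells with Tnmd and in 19.7% (11.5 to 30.5) of the 76 without. In Bmx-CreER Wls the shares were 88.7% (79.0 to 95.01) of 71 and 39.6% (30.5 to 49.4) of 111. Scx went the same way, in 26.3% against 3.95% of WT cells and 49.3% against 18.02% of Bmx-CreER Wls cells. So did Mkx, in 31.6% against 3.95% and 35.2% against 9.91%. Thbs3 did so in WT alone (76.3% against 36.8%), with 38.0% against 50.5% in Bmx-CreER Wls. Thbs1 did so in Bmx-CreER Wls alone (52.1% against 21.6%), with 36.8% against 40.8% in WT. The intervals of Thbs2 overlapped in each library. Comp went the other way in Bmx-CreER Wls, with 7.04% (2.33 to 15.7) of cells with Tnmd and 37.8% (28.8 to 47.5) of cells without, and its WT shares of 13.2% and 21.1% had overlapping intervals. Cells with Tnmd were the deeper ones, with medians of 3015 against 2038.5 UMIs in WT and 3485 against 2370 in Bmx-CreER Wls. The shares above were not thinned to an equal depth.

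The dividing tendon-like cells had Tnmd at 3233 CPM in WT, 2.95 times (2.42 to 3.60) the level of the other tendon-like cells, and at 2574 CPM in Bmx-CreER Wls, 1.23 times (1.06 to 1.42). Thbs4 stood at 1713 and 1852 CPM, and Thbs2 at 835 and 606 CPM. Thbs1 had 1 UMI in the 11 WT cells and 20 UMIs in the 20 Bmx-CreER Wls cells, a ratio of 10.9 with an interval from 1.74 to 451. Tnmd and Thbs4 were thus not limited to cells outside the cycle.

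**Figure D5:**
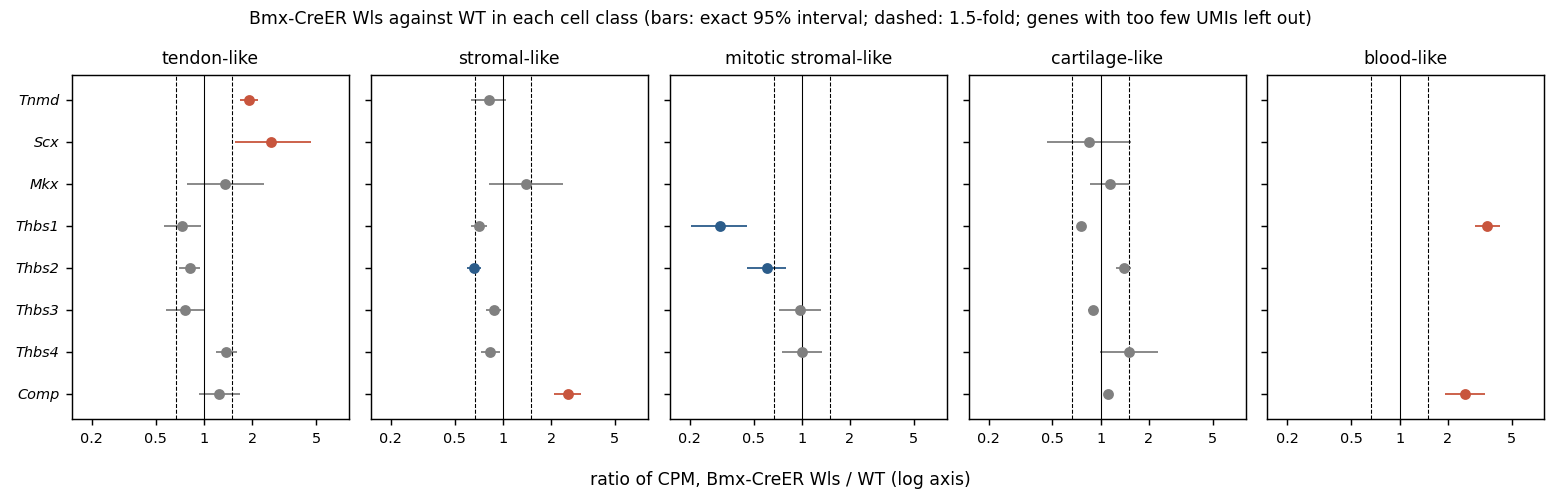
Ratio of CPM in Bmx-CreER Wls over WT for each gene with enough UMIs (log axis), in 5 cell classes, with exact 95% intervals, a solid line at 1 and dashed lines at 1.5-fold either way. Tnmd and Scx in tendon-like, Comp in stromal-like, and Thbs1 and Comp in blood-like cells lie past 1.5-fold higher, and Thbs2 in stromal-like and Thbs1 and Thbs2 in mitotic stromal-like cells past 1.5-fold lower.

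The libraries were compared within each class, with ratios given as Bmx-CreER Wls over WT and called past 1.5-fold. In tendon-like cells 2 of 8 genes were higher and 0 lower, with a background of 10.5% higher and 5.56% lower over 2700 genes. Tnmd was 1.91-fold (1.69 to 2.17) and Scx 2.62-fold (1.57 to 4.63) higher. The other 6 lay within 1.5-fold, from 0.732 for Thbs1 and 0.764 for Thbs3 to 1.34 for Mkx and 1.38 for Thbs4.

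The Tnmd difference did not hold in every setting. It lay under 1.5-fold with the 8 genes kept among those clustered (1.398), with cells taken by a gate on tendon markers (1.48), with a stricter cell filter (1.24), with a second pass over stromal-type clusters (1.42) and with another clustering seed (1.298). Without the Kera, Chodl and Zfp185 group Tnmd stood at 1092 CPM in WT and 1060 CPM in Bmx-CreER Wls, a ratio of 0.970 (0.837 to 1.13). Scx remained past the fold at 2.05 (1.18 to 3.71), Comp came to 1.59 (1.19 to 2.15) and Thbs1 to 0.528 (0.384 to 0.724), with a background of 7.89% higher and 4.3% lower. Tnmd is X-linked, and the libraries differed in the share of cells with Xist. Among tendon-like cells with an Xist UMI, Tnmd stood at 1071 CPM (15 cells) in WT and 2184 CPM (96 cells) in Bmx-CreER Wls. Among those without, it stood at 1097 CPM (99 cells) and 1977 CPM (86 cells). A cell without an Xist UMI may still express Xist, so these sets do not divide the cells by sex, and the part of X linkage was not tested.

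In stromal-like cells 1 of 7 genes was higher and 1 lower, with a background of 6.92% and 3.6%. The higher gene was Comp, at 2.53-fold (2.08 to 3.08), and Col2a1 moved from 1231 to 2534 CPM beside it, with the Comp to Col2a1 proportion given above. The lower gene was Thbs2, at 0.662 (0.600 to 0.729). Its ratio was nearer 1 in each of the 4 stromal-like clusters taken alone, at 0.756 (0.656 to 0.868) in the Mfap5-led, 0.760 (0.586 to 0.985) in the Dpt-led, 0.931 (0.760 to 1.14) in the Epha3-led and 1.02 (0.714 to 1.46) in the Hbegf-led cluster. The clusters make up different parts of the class, and the Mfap5-led one, richer in Thbs2 than the Dpt-led and the Hbegf-led ones, had 513 WT and 174 Bmx-CreER Wls cells.

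Within the stroma Tnmd was highest in the Epha3-led cluster (65 and 49 cells), at 387 and 487 CPM. It held 80 of the 183 stromal-like Tnmd UMIs in WT and 79 of 107 in Bmx-CreER Wls, and the Mfap5-led cluster held 90 and 23. The same small cluster was also the highest of the stromal-like clusters in Thbs2, at 1126 and 1049 CPM, and low in Thbs4, at 96.6 and 37.0 CPM. Without it the Tnmd of stromal-like cells was 32.5 CPM in WT and 12.4 CPM in Bmx-CreER Wls, a ratio of 0.380 (0.241 to 0.582), where the whole class had 0.813 (0.635 to 1.04). The Hbegf-led cluster (182 and 203 cells) had no Tnmd UMI in either library, which allows up to 5.48 and 4.52 CPM.

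In mitotic stromal-like cells 2 of 4 genes were lower and 0 higher, with a background of 8.96% lower and 7.12% higher. Thbs1 stood at 321 CPM in WT and 99.4 CPM in Bmx-CreER Wls, a ratio of 0.310 (0.205 to 0.455), and Thbs2 at 0.606 (0.455 to 0.798). Of the 5 clusters of this class, 2 were nearly those of the WT library: the Mfap5-led and the Crabp1-led clusters had 27 WT and 3 Bmx-CreER Wls cells each, with WT Thbs1 at 548 and 333 CPM. In the 3 others WT Thbs1 stood at 115, 160.0 and 471 CPM. That of Bmx-CreER Wls stood at 60.9, 83.2 and 134 CPM, lower in all 3, but each cluster held too few UMIs for a call. The whole class held 181 WT and 31 Bmx-CreER Wls Thbs1 UMIs. Whether the difference holds within clusters was not tested. Thbs3 (0.975, 0.717 to 1.32) and Thbs4 (1.01, 0.754 to 1.34) lay near 1.

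In cartilage-like cells 0 of 7 genes passed 1.5-fold, with a background of 5.61% higher and 2.79% lower. Thbs1 had a ratio of 0.748 (0.728 to 0.770) and Comp 1.11 (1.09 to 1.13), small departures at high counts. Comp was higher in Bmx-CreER Wls in each of the 9 cartilage-like clusters, by 1.09-fold to 2.34-fold, and its ratio over the whole class was lower than in 8 of them.

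In blood-like cells both genes with enough UMIs were higher, with a background of 5.02% higher and 2.76% lower. Thbs1 stood at 33.8 CPM (28.9 to 39.2) in WT and 119 CPM (107 to 131) in Bmx-CreER Wls, 3.51-fold (2.93 to 4.23). The Lyz2-led cluster (39 and 50 cells) held 94 of 174 WT and 233 of 393 Bmx-CreER Wls UMIs, at 791 and 1493 CPM, and had 1.89-fold (1.48 to 2.42) more. The macrophage list scored highest in that cluster, but its leading genes also held S100a8, a marker of the neutrophil-monocyte list. Without it the ratio was 3.19 (2.42 to 4.23), on 15.9 and 50.7 CPM.

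Comp in blood-like cells was 2.55-fold (1.93 to 3.39) higher, at 16.1 and 41.1 CPM. In the Mt2-led cluster it had 3 UMIs in WT and 38 in Bmx-CreER Wls, a ratio of 28.0 (8.89 to 142), and Col2a1 there stood at 45.3 and 1268 CPM. Without that cluster the ratio was 1.68 (1.24 to 2.29). Within the Mpo-led progenitors, 17 WT and 17 Bmx-CreER Wls cells led by Retnlg, Pf4 and Alox15 held 41 of 44 and 74 of 84 Comp UMIs of that cluster. The whole blood-like class had 83 and 136. Col2a1 stood at 13266 and 18672 CPM in these few cells, so they also carried cartilage RNA.

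Outside these classes, the mural-like cells, the smooth muscle cells and pericytes around vessels, were a further place of Tnmd. It stood there at 122 CPM in WT and 240 CPM in Bmx-CreER Wls, 1.98-fold (1.37 to 2.89) higher, and was found in 22.8% and 34.8% of cells. Scx and Mkx had no UMI in mural-like cells of either library, which allows up to 8.48 and 7.21 CPM, and neither had the tendon marker Kera. At the Tnmd level of WT mural-like cells, Scx and Mkx in the proportion of WT tendon-like cells would lie under that limit. Their absence is thus not shown in WT. In Bmx-CreER Wls the same proportion would place both above the limit of 7.21 CPM, and neither had a UMI.

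An unnamed cluster led by Prg4, the lubricin gene of joint surfaces, with 241 WT and 752 Bmx-CreER Wls cells, had Comp at 1583 and 1962 CPM and Thbs1 at 1265 and 980 CPM. It held no Tnmd UMI in WT and 1 in Bmx-CreER Wls. Of the marker lists it scored highest for cartilage, with Col2a1 at 54725 and 56752 CPM. Thbs4 reached 389 and 862 CPM in 27 WT and 27 Bmx-CreER Wls dividing cells led by Afp, which no list named.

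Across the 36 clusters, with both libraries summed, the genes whose level followed each member most closely were found by Pearson's r of log2(CPM + 10). These points share libraries and differ in depth, so r is a description. Zfp185 (0.845), Kera (0.829) and Cys1 (0.801) followed Tnmd, and Zfp185 (0.822), Kera (0.760) and Chodl (0.732) followed Scx. For Mkx they were Cpm (0.812), Zfp185 (0.802) and Tnn (0.793), so Zfp185 was in all 3 lists. Thbs4 went with Pamr1 (0.944), Spink2 (0.902) and Ssc5d (0.876), Thbs2 with Nfatc4 (0.908), Col3a1 (0.894) and Prrx1 (0.888), and Thbs3 with Angptl2 (0.896), Ndn (0.882) and Golim4 (0.880). Comp went with the cartilage genes Col9a1 (0.955), Col2a1 (0.954) and Hapln1 (0.952), and Thbs1 with P4ha2 (0.817), Gramd3 (0.812) and Cspg4 (0.807).

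Genes that work with the members were compared between tendon-like and stromal-like cells at the same 2-fold limit. Over all genes with as many UMIs, 3.1% were higher and 14.4% lower in WT, and 3.1% and 10.8% in Bmx-CreER Wls. Of 18 tendon matrix genes 7 were higher and 3 lower in WT, and 8 and 3 in Bmx-CreER Wls. Kera (23.8-fold and 108-fold) and Fmod (20.6-fold and 12.2-fold) are counted among the higher ones but are also markers from which the class was named, so their ratios restate the naming. Of the others, Tnc (3.25-fold and 4.33-fold), which encodes tenascin-C, and Bgn (2.84-fold and 3.27-fold), which encodes biglycan, were the highest, while Fbn1 (0.241 and 0.242) and Dcn (0.204 and 0.419), the genes of fibrillin-1 and decorin, were lower. RNA of Dcn and Fbn1 was thus higher in the stromal-like class. Dcn is itself a stromal marker from which classes were named, so its ratio in part restates the naming. Col1a1, Col1a2, Col3a1 and Lum of this list are stromal markers too.

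Among 13 other regulators of tendon formation with enough UMIs in WT, 1 was higher and 2 lower, and in Bmx-CreER Wls 2 of 14 were higher and 2 lower. Over all genes 3.1% were as much higher in each library, and 14.4% in WT and 10.8% in Bmx-CreER Wls as much lower. These few calls are no result about the list. Sox9, the cartilage regulator that tendon attachment cells also express, had ratios of 2.62 (2.07 to 3.28) and 0.999, Gli1 1.70 and 1.03, Tgfb3 1.44 and 1.20, and Gdf5 1.34 and 0.601. Sox9 is also a cartilage marker from which classes were named. Bmp4 (0.410 and 0.496) was lower in each library, and Egr1, an early response gene that drives tendon collagen, was lower in WT only (0.378 and 0.876). The higher genes of Bmx-CreER Wls, named here after their values were seen, were Six2, at 5.12 (2.85 to 9.28), and Meox2, at 2.53 (2.09 to 3.05). Six2 had too few UMIs for a call in WT, and Meox2 had a ratio of 1.18 there.

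Of 10 thrombospondin receptor genes with enough UMIs, 0 were higher and 2 lower in each library. The shares over all genes were 3.1% higher in each library, and 14.4% lower in WT and 10.8% in Bmx-CreER Wls. So few calls in 10 genes are no result about the receptors. Cacna2d1, which encodes the calcium channel subunit that binds thrombospondins, had ratios of 1.88 and 1.39, the integrin gene Itgav 0.971 and 1.11, Lrp1 0.966 and 1.01, Calr 0.884 and 1.04 and Itga6 0.428 and 0.671. Itgb3 was found at 3.50 CPM in WT tendon-like cells against 82.1 CPM in stromal-like cells, and had no UMI in those of Bmx-CreER Wls. Itga5, named here after its values were seen, had ratios of 0.646 and 0.484. The lower genes were thus Itgb3 and Itga6 in WT and Itgb3 and Itga5 in Bmx-CreER Wls.

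Of 12 matrix partners of COMP, 7 were higher and 1 lower in WT, and 4 higher and 3 lower in Bmx-CreER Wls. The background was 3.1% higher and 14.4% lower in WT, and 3.1% and 10.8% in Bmx-CreER Wls. Acan (5.60 and 2.82), Col9a1 (4.43 and 1.71), Col9a3 (4.42 and 1.57) and Col2a1 (3.79 and 1.71) were higher in WT tendon-like cells, and Matn1 (0.0954 and 0.0505) was lower. Acan, Col9a1, Col9a2, Col2a1 and Matn1 are cartilage markers from which classes were named. The Tnn, Cpxm2 and Ecm2 group held 1040 of the 1335 WT and 1842 of the 2312 Bmx-CreER Wls tendon-like Col2a1 UMIs. The part of that group in these ratios was not tested. Matn2 had ratios of 0.5002 and 0.480. Lect1, the name in the tables for chondromodulin, the cartilage relative of tenomodulin, had ratios of 3.29 (2.43 to 4.40) and 1.25 and a level of 3379 CPM in WT cartilage-like cells. Twist1, a relative of Scx, stood at 0.827 and 0.935, and Tcf15 had too few UMIs.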

How the data were processed

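Lineage-depleted femur cells of E18.5 embryos were profiled with the BD Rhapsody whole-transcriptome kit, 1 library per genotype. The deposited values are counts, that is whole numbers of UMIs per gene and cell barcode, not normalized, which the authors made with UMI-tools 1.0.1, STAR 2.7.1a (mm10) and featureCounts 1.6.4, per the submitters' processing notes. The strand setting of the counting is not given in the sources used here.

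The members, gene lists and cell classes were chosen with earlier results of these data known. The study's cell filter was applied (over 200 and below 5000 detected genes, mitochondrial UMIs under 30%). Both libraries were clustered together with scanpy 1.11.5: scale factor 10000, 2046 variable genes without the 8 members, 30 principal components, 20 neighbours and Leiden resolution 1. The mitotic cluster was split again, giving 36 clusters, which were named from marker lists without the members or left unnamed. This was tried in several versions with the members' levels in view: single precision gave no tendon-like class, other seeds, neighbour searches and a second pass were run, and the naming rule for tendon and the split were set after seeing the data. Doublets were kept. Scrublet's own threshold marked 38 WT and 0 Bmx-CreER Wls cells, so it has not worked in the second library.

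UMIs were summed per class and library and given as CPM. Ratios were called past 2-fold between classes and 1.5-fold between libraries where at least 50 UMIs were present, and a count of 0 was given a limit of 3 counts. Intervals were tested on simulated data. No test was made, since cells of 1 library are not replicates. Genes named beside the members were those of each list with the highest and lowest WT tendon-like over stromal-like ratios, relatives of members and, per member, the 3 genes with the highest r over clusters. Clusters and groups within classes were named by leading genes, and those described singly were chosen after their values were seen. Some results are not reported here.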

Additional observations from a re-analysis of the deposited data

Results flagged for a closer look

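Thbs1 went in opposite directions in 2 classes when Bmx-CreER Wls was set against WT: it was 3.51-fold higher in blood-like cells and had a ratio of 0.310 in mitotic stromal-like cells. With 1 library per genotype this difference between classes was not tested. In blood-like cells the Lyz2-led cluster of 39 WT and 50 Bmx-CreER Wls cells held 94 of 174 and 233 of 393 Thbs1 UMIs, with a ratio of 1.89, and without it the ratio of the class was 3.19 (2.42 to 4.23). The lower level in mitotic stromal-like cells was that of 127 WT and 71 Bmx-CreER Wls cells, of which 27 and 3 were in the Mfap5-led cluster with the highest WT Thbs1. The part of this make-up in the ratio was not tested.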

How the results depend on the processing

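The number of tendon-like cells depended most on the processing, from 114 WT and 182 Bmx-CreER Wls cells as reported. It was 0 and 0 at resolution 0.5 and with 11 principal components, 0 and 36 with each library clustered on its own, 36 and 102 with at least 1000 UMIs and under 10% mitochondrial UMIs, 64 and 120 without the 5% highest Scrublet scores, and 296 and 717 with a gate on tendon markers. Settings chosen after seeing the data gave 40 and 110 with clustering seed 1, 176 WT cells with Leiden run to convergence, and 340 and 718 at resolution 2.0 with the earlier naming rule. The gate without the Prg4-led cluster, also chosen so, took 112 and 143 cells. Where the class was empty, its ratios have no value.

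Over the settings that gave a value, Tnmd stayed higher in tendon-like than stromal-like cells, by 6.44 to 43.2 times in WT and 11.7 to 115 times in Bmx-CreER Wls. Comp reversed in WT at 0.435 with the stricter cell filter and 0.806 with seed 1, and in Bmx-CreER Wls at 0.989 with the members kept among the clustered genes and 0.854 with each library alone. Thbs2 reversed in WT at 0.960 with the gate and 0.924 with the earlier naming rule, and in Bmx-CreER Wls at 0.988 with that rule. Thbs4 left the members past 2-fold in both libraries under the gate, with and without the Prg4-led cluster, and under the earlier naming rule, and Thbs1 joined them under the gate with that cluster and under that rule. Comp left them at 1.18 in Bmx-CreER Wls without the group that scored highest for cartilage, a setting chosen after seeing the data. The members at least 2-fold higher in both libraries fell from 5 to 3 with the gate without the Prg4-led cluster. The cause was not tested.

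Between libraries, Tnmd in tendon-like cells reversed to 0.970 without the Kera, Chodl and Zfp185 group, whose removal takes out 41 of the 182 Bmx-CreER Wls cells, and was 1.24 to 1.48 and no longer past 1.5-fold in 5 other settings, given in the results. Over the 5 classes, 5 higher calls became 8 with Leiden run to convergence, and 3 lower calls became 5 with a second pass over stromal-type clusters. Thbs1 in mitotic stromal-like cells (0.224 to 0.342), Thbs1 in blood-like cells (2.98 to 6.24) and Comp in stromal-like cells (2.02 to 4.77) stayed past 1.5-fold in the settings with a value, whereas Thbs2 in stromal-like cells ranged from 0.596 to 0.805. Of 604 values of library ratios under alternatives, 540 lay within the reported interval, 63 moved and 1 reversed, and of 303 values of tendon-like over stromal-like ratios, 196 lay within it, 100 moved and 7 reversed.

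No paired analysis was possible because each genotype has 1 library, and for the same reason no replicate could be left out. Depth limits Scx and Mkx most, with 18 and 20 UMIs in WT tendon-like cells, and a difference in Scx between stromal-like and cartilage-like cells was not detectable at this depth. For Mkx the ratio of these classes was 0.915 (0.585 to 1.399) in WT and 1.12 (0.734 to 1.66) in Bmx-CreER Wls.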

Other observations

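A part of the authors' list of stromal cells, in which WT barcodes carry cluster numbers without names, was set beside the classes used here. Of the 114 WT tendon-like cells, 81 were in it, 74 of them under number 2. The 940 cells listed under number 2 had Tnmd at 145 CPM (132 to 160) and Thbs4 at 242 CPM. The 231 cells under number 5 were dividing, with the cycle gene Mki67 at 862 CPM, and had Tnmd at 237 CPM and Thbs4 at 320 CPM. The 149 cells under number 6 had no Tnmd UMI and Thbs4 at 274 CPM.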
